A study of Mus musculus with 8 samples.

Results

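A set of 10 genes that code for sensors of foreign or misplaced nucleic acids, and for their adaptors, were followed in C2C12 myoblasts in which Pvt1, a long non-coding RNA, had been silenced. The genes were Ddx58, Ifih1, Dhx58, Mavs, Tlr3, Tlr7, Tlr9, Tmem173, Zbp1 and Aim2. They were chosen by name out of the 27248 gene symbols on the array, with earlier results of these data known. Every probe carrying one of these names was taken, which gave 20 probes. Expression was measured on 8 one-colour mouse arrays, 1 for each culture of proliferating C2C12 cells, a line of mouse myoblasts, at passage 10. In 4 cultures Pvt1 was silenced by transfection with Lipofectamine 2000 and antisense LNA GapmeRs, short oligonucleotides that bring RNase H to the RNA they bind. The 4 control cultures received Lipofectamine 2000 with negative control GapmeRs, so both groups carried the transfection reagent and an oligonucleotide. The labels number the cultures as biological replicates 1 to 4 in each group and give no genetic change in either. No culture received the Pvt1 GapmeRs without loss of Pvt1, so the response to that loss and the response to these oligonucleotides cannot be told apart.

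Cells detect nucleic acids in several places. In the cytosol, RIG-I and MDA5, the products of Ddx58 and Ifih1, bind double-stranded RNA and signal through MAVS on mitochondria, while LGP2, the product of Dhx58, tunes them. Toll-like receptors 3, 7 and 9 read double-stranded RNA, single-stranded RNA and unmethylated CpG DNA inside endosomes, STING (Tmem173) relays the signal of cytosolic DNA from the endoplasmic reticulum, AIM2 builds an inflammasome on DNA, and ZBP1 binds left-handed nucleic acids. The cytosolic RNA sensors, STING and the endosomal receptors lead to type I interferon, which in turn raises many of the sensors and the genes of the antiviral state.

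The Pvt1 GapmeRs are shown because they are themselves the nucleic acid that separated the groups. The labels list both for silencing and do not say whether a culture received one or both. They are written 5′ to 3′ in lower case.
Pvt1_1: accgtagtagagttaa
Pvt1_3: agtcaacgcttcacat

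The starts of Ddx58 and Ifih1 are shown because both genes were called higher in silenced cells and both held the core of the interferon-stimulated response element, the DNA word that interferon-activated factors bind. Sequences and gene starts were those of RefSeq on build GRCm38.p6, in which 6 of the 10 genes had a window of 300 bases, 250 before the start and 50 after it. Tmem173, also called higher, had no window and was not searched, nor were Dhx58, Tlr7 and Zbp1. The word searched was GAAANNGAAA, or TTTCNNTTTC on the other strand, and the match is in capitals. Ddx58 is given for chr4:40239814-40240075 on the minus strand, which ends 12 bases past the start, and Ifih1 for the 28 bases at chr2:62646206-62646233 on the minus strand, which lie past the start.
Ddx58: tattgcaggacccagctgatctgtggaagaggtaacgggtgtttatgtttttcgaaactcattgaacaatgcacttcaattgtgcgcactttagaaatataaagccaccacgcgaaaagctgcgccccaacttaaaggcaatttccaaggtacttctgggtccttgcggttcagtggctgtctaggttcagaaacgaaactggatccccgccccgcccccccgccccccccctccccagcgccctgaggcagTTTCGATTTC
Ifih1: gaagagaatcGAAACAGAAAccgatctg
The match began 3 bases into the transcript of Ddx58 and 33 bases into that of Ifih1, counting the start as 1. It was in 2 of the 6 windows, and in 1131 of 32851 windows over all genes (3.44%). The windows of Mavs, Tlr3, Tlr9 and Aim2 did not hold these letters. The gamma-activated site TTCNNNGAA, which reads the same on both strands, was in 0 of the 6 windows and in 8.30% of all windows, and the E-box CACGTG, the word of Myc and Max, was in 0 of the 6 and in 7.15% of all. The upstream window of Tlr9, the member called lower, is given for comparison as the 250 bases before its start, chr9:106222348-106222597 on the plus strand.
Tlr9: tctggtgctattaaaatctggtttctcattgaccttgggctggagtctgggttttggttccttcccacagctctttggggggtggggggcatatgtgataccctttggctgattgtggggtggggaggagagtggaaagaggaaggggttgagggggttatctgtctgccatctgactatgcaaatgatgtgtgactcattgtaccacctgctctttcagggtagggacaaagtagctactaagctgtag

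Silencing and array quality were examined first. The brightest Pvt1 probe (chr15:62081020-62081079, build mm9) was lower in silenced cells by a log2 change of -2.86 (SE 0.32, limma adjusted p 0.000682), and a second Pvt1 probe was lower by at least 5.41-fold. Spots positive and significant over background made up 58.8% to 62.5% on 7 arrays and 51.6% on silenced replicate 4, the dimmest array. Control replicate 3 gave the lowest control values of Tlr7 and Tlr9 and the highest of Ddx58, Ifih1 and Dhx58. Of 6 myoblast markers, Myod1, Des and Cdh15 were bright on all arrays and called lower in silenced cells (changes of -1.95, -1.35 and -0.86). Vim and Myog did not pass the test (-0.17, adjusted p 0.561, and 0.13, adjusted p 0.917), and Myf5 gave no signal clearly over background. Of 7 macrophage markers on the array 5 were well above background in both groups, with Adgre1 and Lyz2 below it, and their summed signal was 6480 to 7136 units in controls and 7975 to 10923 in silenced cells. Cd68 and Cd14 were called higher (1.84 and 0.87) and Csf1r and Itgam lower (-1.12 and -1.08). Of 4 endothelial markers 0 were well above background, and of 6 dendritic and B cell markers only Siglech was so on all arrays. Of 6 hepatocyte markers 0 were above background on all control arrays and 4 on all silenced arrays, with summed signals of 87.2 to 106 and of 3341 to 4261 units. In such bulk RNA, fewer cells of a type and less RNA per cell cannot be told apart. The part of these other transcripts in the results below was not tested.

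Signal was present for some of the sensors only. A spot is well above background when the scanner software sets it clearly over its local surroundings. Of the 20 probes, 4 met this on all 8 arrays (1 each for Ddx58, Mavs, Tlr9 and Tmem173), 6 on some arrays and 10 on no array. Both probes of Tlr3 were below it on all 8 arrays. With at least 3 of 4 values required in each group, 10 probes of 8 genes were tested. Tlr3 and Zbp1 had no tested probe, and no probe was saturated.

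Of the 10 tested probes, 3 were called higher in silenced cells (Ddx58, Ifih1 and Tmem173), where 4.79% of all 28649 tested probes were called higher. A single probe, that of Tlr9, was called lower, where 18.4% of all tested probes were called lower. The members were chosen with earlier results of these data known, so they are no blind draw from the array. A probe was called at a limma p under 0.05 after Benjamini-Hochberg adjustment over all tested probes. The median change of the 10 probes was 0.57 log2, beside -0.19 for all tested probes. By gene, the median was 0.43 for the 8 sensors and adaptors and -0.05 for all 15444 genes. Of 9 member probes with a value on all arrays, the groups did not overlap for 1 that was higher (Tmem173) and 2 that were lower (Tlr9 and Dhx58), beside 5.36% and 23.1% of all 25108 such probes. The background of calls moved with the scaling. Under cyclic loess, which placed the median of all probes at 0.02, 18.9% of all probes were called higher and 18.4% lower, and the members then gave 3 higher and 0 lower.

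**Figure D1:**
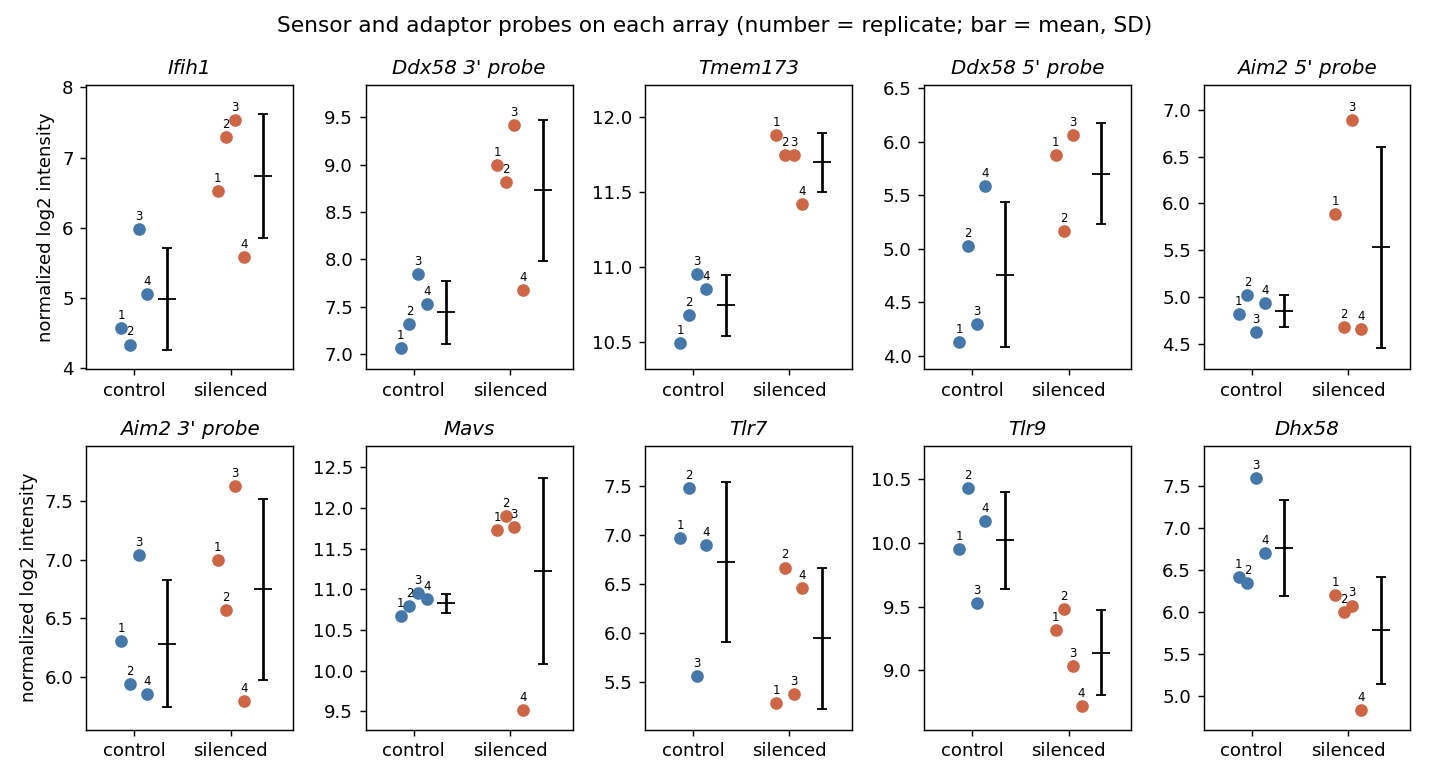
Normalized log2 intensity (vertical axes, each with its own range) of the 10 tested probes in control (blue) and silenced (red) cultures, with the replicate number beside each point and the mean and SD as a bar. Silenced replicate 4 lay lowest of the silenced cultures for each probe with values on all arrays except that of Tlr7, at 9.52 for Mavs against 11.73 to 11.90 in the other silenced cultures.

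RIG-I, the sensor of short double-stranded RNA with a 5′ triphosphate, had 4 probes for Ddx58 on chromosome 4. The probe nearest the 3′ end (chr4:40151893-40151952, build mm9) read 7.06, 7.32, 7.84 and 7.53 log2 in control replicates 1 to 4. In silenced replicates 1 to 4 it read 9.00, 8.82, 9.42 and 7.68. Silenced replicates 1 to 3 thus lay above every control, and silenced replicate 4 lay within the control range. The change was 1.29 log2 (SE 0.36, limma adjusted p 0.029), or 2.45-fold, and 1.48 above the median of all probes. The call was lost without control replicate 1, 2 or 4 or silenced replicate 1, 2 or 3 (1.05 to 1.32, adjusted p 0.0643 to 0.079).

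The other Ddx58 probes show what was read upstream of this end. They lay 5025, 19076 and 24635 bases upstream in the genome, held 1 open reading frame each in the direction of the gene, and are given 5′ to 3′ from the array files.
A_51_P393748 (chr4:40156918-40156977): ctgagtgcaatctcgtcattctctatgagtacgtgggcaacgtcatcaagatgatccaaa
A_55_P2609358 (chr4:40170969-40171028): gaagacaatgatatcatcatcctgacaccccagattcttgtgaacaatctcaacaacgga
A_52_P523946 (chr4:40176528-40176587): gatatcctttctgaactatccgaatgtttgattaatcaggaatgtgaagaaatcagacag
The 3′-most probe instead held both common polyadenylation signals and no open frame. A_51_P393748 read 4.13, 5.02, 4.30 and 5.59 in controls and 5.88, 5.17 and 6.06 in silenced replicates 1 to 3, with no value on silenced replicate 4. It was well above background on no array, and its change of 0.94 did not pass the test (SE 0.40, adjusted p 0.122). The groups overlapped. The 2 probes farther upstream were well above background on no array. With no upstream probe well above background, the ends of the transcript could not be compared.

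MDA5, the sensor of long double-stranded RNA, was read by 2 probes for Ifih1. The tested probe (chr2:62435621-62435680) read 4.57, 4.34, 5.98 and 5.05 in controls. In silenced cells it read 6.52, 7.30, 7.54 and 5.58. Replicate 4 alone of the silenced cultures fell below the highest control, replicate 3. The fitted change was 1.75 (SE 0.48, limma adjusted p 0.0267), but the probe was well above background on 0 control and 3 silenced arrays. This change and those below are therefore no measured size. The mean of all 4 silenced arrays, replicate 4 included, was at least 1.60-fold over the lowest signal well above background on the control arrays. The call was lost without control replicate 1, 2 or 4 or silenced replicate 2 or 3 (1.49 to 1.77, adjusted p 0.0622 to 0.0801). Under normexp, another background correction, the change was 0.64. The second probe, 10692 bases upstream and designed to another transcript, was not above background on any array.

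LGP2 is the third RNA helicase of this family, one without signalling domains. The tested probe of Dhx58 (chr11:100556271-100556330) read 6.42, 6.35, 7.59 and 6.70 in controls and 6.21, 6.01, 6.08 and 4.84 in silenced cells. With dim spots masked, all silenced values lay below all controls, yet the change of -0.98 did not pass the test (SE 0.37, adjusted p 0.087). The probe was well above background on 4 control and 0 silenced arrays. The mean of the 4 control arrays was 1.51-fold over the lowest signal well above background on the silenced arrays, a value tied to this background treatment. Under normexp the change was -0.43. Without control replicate 3 and silenced replicate 4 the change was -0.39. It was -1.03 and passed under a shift to the 75th percentile (adjusted p 0.0142), the only one of the alternatives in which it did.

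MAVS is the adaptor on the outer mitochondrial membrane that both RNA helicases engage. Its only probe (chr2:131073675-131073734) read 10.68, 10.80, 10.95 and 10.88 in controls. In silenced cells it read 11.73, 11.90, 11.77 and 9.52. Silenced replicates 1 to 3 were above all controls and replicate 4 was below all of them, which gave a change of 0.40 with a 95% interval of -0.67 to 1.48 (adjusted p 0.591). Without silenced replicate 4 the change was 0.98 and was called (limma adjusted p 0.00396). Without silenced replicate 1, 2 or 3 it was 0.24, 0.18 or 0.22 and was not called (limma adjusted p 0.804 to 0.848).

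STING is the adaptor of cytosolic DNA sensing, and its gene was called higher under every alternative run. The probe of Tmem173, named Sting1 in RefSeq (chromosome 18, minus strand), read 10.49, 10.68, 10.95 and 10.85 in controls. In silenced cells it read 11.88, 11.74, 11.75 and 11.42. Every silenced value exceeded every control. The change was 0.95 (SE 0.20, limma adjusted p 0.00892), or 1.94-fold. Over the 22 alternatives the change was 0.88 to 1.14. Within the upper row of the slide the difference was 1.17 and within the lower row 0.78, with 1 silenced or 1 control array against 3.

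Of the endosomal receptors, Tlr9 was called lower and none was called higher. Tlr9, which binds CpG DNA, had 1 probe (chr9:106128979-106129038) that read 9.95, 10.43, 9.53 and 10.17 in controls. In silenced cells it read 9.32, 9.48, 9.04 and 8.72. The groups met almost end to end, with 9.48 in silenced replicate 2 just under 9.53 in control replicate 3. The change was -0.88 (SE 0.26, limma adjusted p 0.0354), and -0.69 against the median of all probes. The call was lost under cyclic loess, the authors' series table and no masking (-0.63 to -0.61, adjusted p 0.0686 to 0.114), and without control replicate 1, 2 or 4 or silenced replicate 1 or 3 (-0.94 to -0.75, adjusted p 0.0638 to 0.116). With the replicate number as a block its adjusted p was 0.0552.

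Tlr7, a receptor for single-stranded RNA, had 3 probes on the X chromosome. The 3′-most one (chrX:163742863-163742922) read 6.97, 7.48, 5.56 and 6.90 in controls and 5.28, 6.67, 5.37 and 6.46 in silenced cells. The groups overlapped through the low control replicate 3, and the change was -0.78 with a 95% interval of -1.81 to 0.24 (adjusted p 0.252). The probe was well above background on 3 control and 2 silenced arrays. A second probe only 283 bases upstream, assigned to the same transcript, was above background on no array, nor was the third, 4351 bases upstream. Tlr3, the receptor for double-stranded RNA, was read at chr8:46481729-46481788 and chr8:46495198-46495257, where signals without masking stayed between 3.84 and 4.31 on all arrays.

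The DNA sensors AIM2 and ZBP1 were dim. The 3′ probe of Aim2 (chr1:175396036-175396095) read 6.30, 5.94, 7.04 and 5.85 in controls. In silenced cells it read 7.00, 6.57, 7.63 and 5.79. The ranges overlapped, and the change of 0.47 did not pass the test (95% interval -0.44 to 1.37, adjusted p 0.45). A second probe, 10376 bases upstream, read 4.82, 5.02, 4.63 and 4.93 in controls and 5.89, 4.68, 6.89 and 4.66 in silenced cells (change 0.68, adjusted p 0.318), well above background on silenced replicate 3 only. Zbp1 was well above background on control replicate 2 alone, at 7.69 on the upstream probe (chr2:173039307-173039366), while the values on the other arrays did not exceed 4.64.

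**Figure D2:**
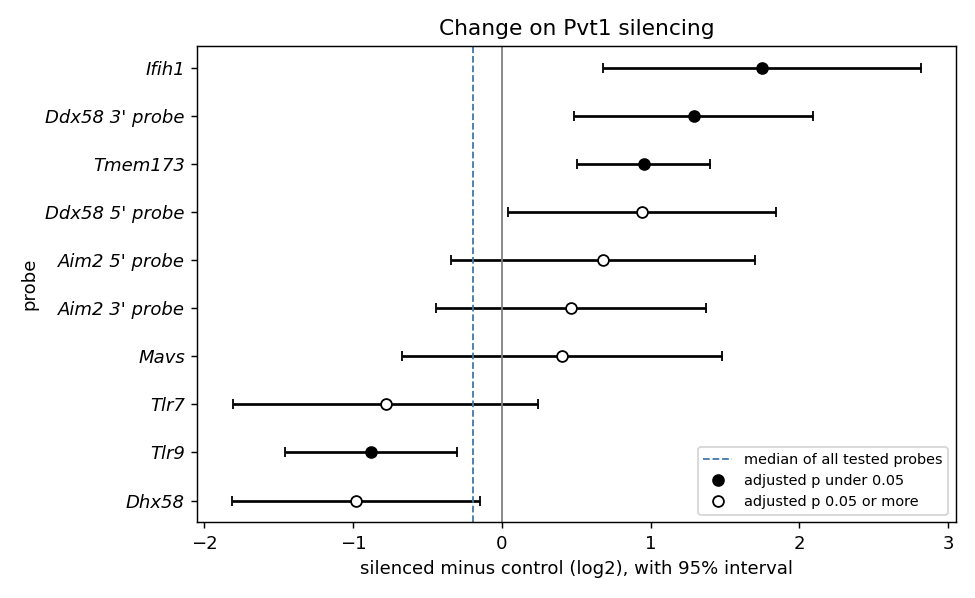
Silenced minus control change in log2 units (horizontal axis) with its 95% interval for each tested probe, filled where the adjusted p was under 0.05, beside the median of all tested probes (dashed, -0.19). Ifih1, the 3′ probe of Ddx58 and Tmem173 lay above 0 and Tlr9 below it, while the intervals of Mavs, Tlr7 and both Aim2 probes crossed 0.

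**Figure D3:**
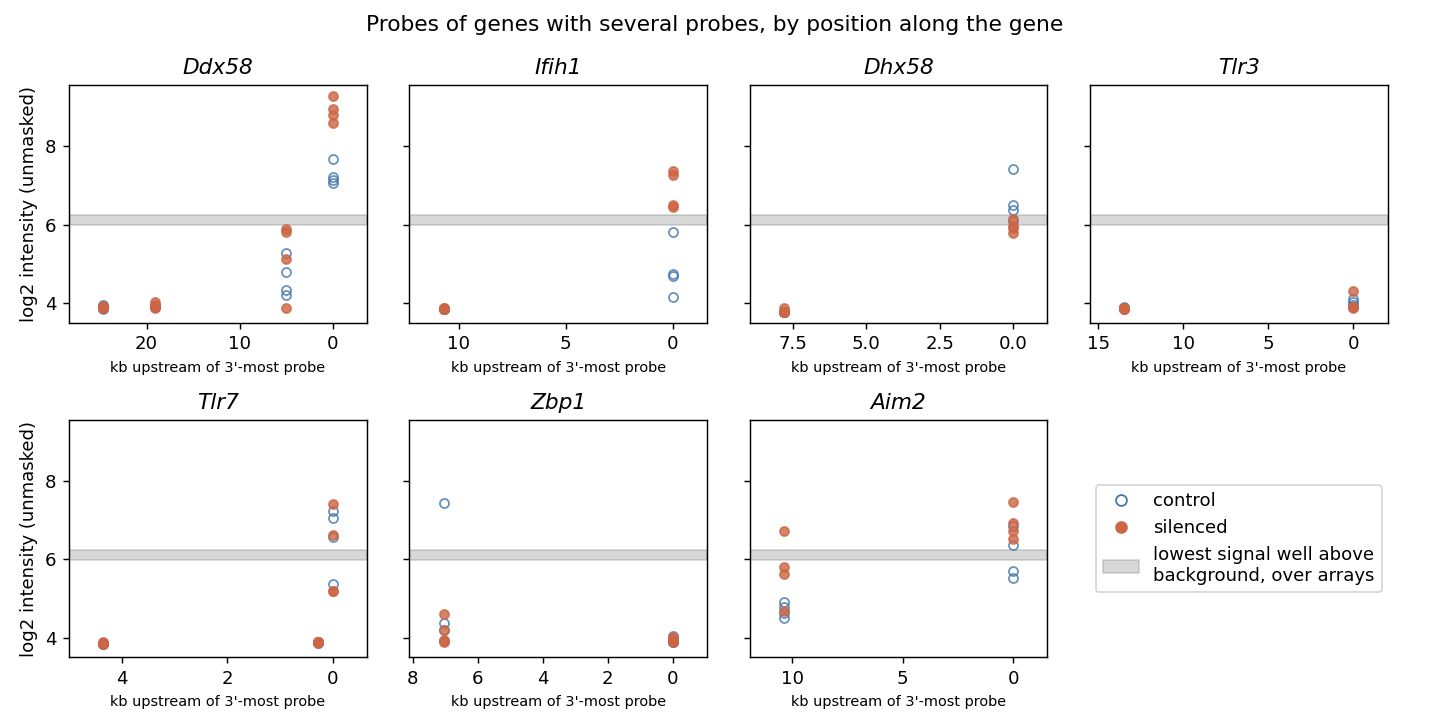
Log2 intensity without masking (vertical axis) of each probe of the 7 genes with several probes, by distance in kilobases upstream of the 3′-most probe (horizontal axis), in controls (open) and silenced cells (filled), with the lowest signals well above background as a grey band. For Ddx58, Ifih1, Dhx58 and Tlr7 only the 3′-most probe rose above the band, while Zbp1 did so on its upstream probe in 1 control.

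The calls of Ddx58, Ifih1 and Tlr9 were also lost with the row of the slide as a block in the fit (adjusted p 0.0832, 0.098 and 0.122) and in the methods' t-test with the Benjamini-Hochberg adjustment used throughout (0.123, 0.101 and 0.0754), while that of Tmem173 was kept in both (0.0467 and 0.0199). Within the upper row, with 3 control and 1 silenced arrays, the differences were 1.59 for Ddx58 and -0.66 for Tlr9. Within the lower row, with 1 control and 3 silenced arrays, they were 1.11 and -1.09. The Ifih1 value was higher in silenced cells within both rows, with no size given since no control array was well above background.

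How silenced replicate 4 read depended on the masking of dim spots before normalization. With masking, its values for Ddx58, Ifih1 and Mavs were 7.68, 5.58 and 9.52. Without masking they were 8.58, 6.51 and 10.22. The groups then no longer overlapped for Ddx58, where the lowest silenced value was 8.58 and the highest control 7.67, or for Ifih1, where these were 6.45 and 5.80. For Tlr9 and Dhx58 it was the reverse. Without masking, Tlr9 in silenced replicates 2 and 4, at 9.46 and 9.53, lay above the lowest control at 9.39. Dhx58 in silenced replicate 1, at 6.13, then lay above control replicate 2, at 6.10. Mavs stayed below all controls on silenced replicate 4 with either treatment.

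**Figure D4:**
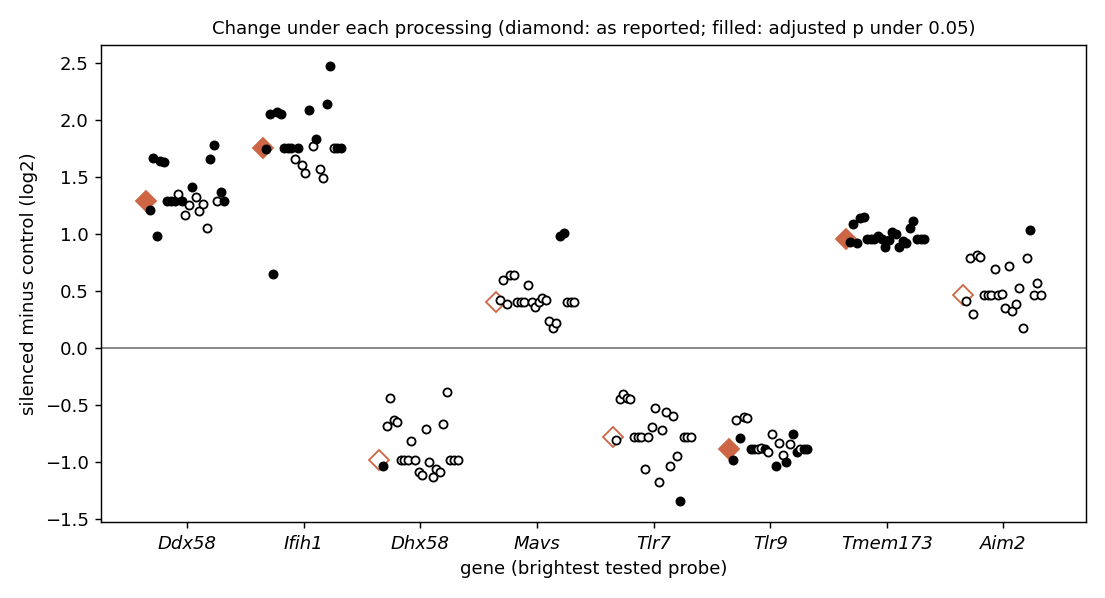
Silenced minus control change in log2 units (vertical axis) of the brightest tested probe of each gene (horizontal axis), as reported (diamond) and under each of the 22 alternatives (circles), filled where the adjusted p was under 0.05. Tmem173 is filled throughout, Ddx58 and Ifih1 in 14 and 15 alternatives, and no gene changes sign.

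Genes next to these in the pathway were taken from 4 lists by function, each gene by its brightest probe, where 6.59% of all 15444 genes were called higher and 13.2% lower. Like the members, the lists were chosen with earlier results of these data known. Of 12 tested other sensors, 2 were called higher and 1 lower, with a median change of -0.01. The higher pair were relatives of the 2′-5′ oligoadenylate synthetases, Oasl1 (at least 12.3-fold by its brightest probe, limma adjusted p 0.000409) and Oasl2 (at least 2.50-fold, limma adjusted p 0.000874). Ddx41, a helicase reported to bind DNA, was lower (-1.56, SE 0.25, limma adjusted p 0.00298). cGAS, the enzyme that makes the ligand of STING, did not pass the test (Mb21d1, -0.35, adjusted p 0.513), nor did the RNA-activated kinase PKR (Eif2ak2, -0.04, adjusted p 0.95).

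Of 35 tested relay genes, which carry the signal from sensor to transcription, 4 were called higher and 5 lower, with a median of -0.23. Irf7, the interferon-induced factor that amplifies type I interferon, was at least 3.78-fold higher (limma adjusted p 0.000558). Casp1, the protease of inflammasomes, was called higher (limma adjusted p 0.0036), but it was well above background on 1 control array against 4 silenced arrays, so no size is given. Traf2 and Tradd, adaptors of the tumour necrosis factor receptors, were higher by 0.79 and 0.64 (limma adjusted p 0.0459 and 0.0482). Tbk1, a kinase that phosphorylates IRF3 downstream of MAVS and STING, was lower by -1.01 (SE 0.21, limma adjusted p 0.00847). Its relative Ikbke was called lower too (limma adjusted p 0.00657), but it was well above background on 1 control and 0 silenced arrays, so no size is given. Irak2, a kinase below the Toll-like receptors, was lower by -1.67 and Casp8 by -1.37 (limma adjusted p 0.000779 and 0.00685). Irf3 itself did not pass the test (-0.20, adjusted p 0.857), with an SD of 1.56 among silenced cultures.

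Of 18 tested restraints, the enzymes and inhibitors that limit sensing, 1 was called higher and 3 lower, with a median of -0.08. Trex1, the exonuclease that clears cytosolic DNA, was higher by 0.81 (SE 0.22, limma adjusted p 0.0269). Nlrc3, an inhibitor of STING, was lower by -1.54, Rnaseh2a, a subunit of the enzyme that removes RNA paired with DNA, by -1.02, and the deubiquitinase gene Cyld by -0.996 (limma adjusted p 0.00551, 0.0132 and 0.00848). The RNA-editing enzyme gene Adar did not pass the test (-0.32, adjusted p 0.355).

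Of 12 tested genes of interferon output, 3 were called higher and 1 lower, with a median of 0.42. Isg15, a ubiquitin-like protein of the antiviral state, went from 7.21 ± 0.53 to 11.08 ± 0.43 (SD, n = 4 each; change 3.87, SE 0.32, limma adjusted p 0.000241). Rsad2, which codes for viperin, was at least 1.78-fold higher, with 3 silenced arrays well above background (limma adjusted p 0.00557), and Stat2 was higher by 1.01 (limma adjusted p 0.0174). Tyk2, the gene of a kinase on the interferon receptor, was lower by -0.95 (limma adjusted p 0.0205). The ligand gene Ifnb1 was well above background on 1 silenced and 0 control arrays and did not pass the test (0.18, adjusted p 0.825). Ifna2 and Ifna4 were well above background on no array. In all, 11 listed genes had too few values to be tested. Of these, 5 were well above background on no array of either group, namely Ifna2, Ifna4, Usp18, Ifi44 and Cmpk2, and Mx2 was so on 1 array of each group. The other 5 were well above background on silenced arrays only. These were Ccl5 (at least 7.51-fold higher), Ifit1 (at least 3.18-fold) and Cxcl10 (at least 2.50-fold), each above background on 4 silenced arrays, and Ifit3 and Mx1 (each at least 1.23-fold) on 3. No test was made of these 5. Ifit2, a relative of Ifit1 and Ifit3 with signal on all 8 arrays, did not pass the test (-0.69, adjusted p 0.21). The promoter word found in Ddx58 and Ifih1 was also in 9 of 19 interferon output genes with a window, in 8 of 15 other sensors, in 2 of 31 relay genes and in 0 of 13 restraints. It was held by genes called higher (Isg15, Rsad2, Stat2) and by untested genes well above background on silenced arrays only (Ifit1, Ifit3, Cxcl10, Oas1a). Ripk1, a kinase gene called lower (limma adjusted p 0.0118), held it too. Other holders were not called, such as Bst2, Eif2ak2 and Mndal, or were well above background on no array, such as Oas3, Ifna2 and Ifna4.

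**Figure D5:**
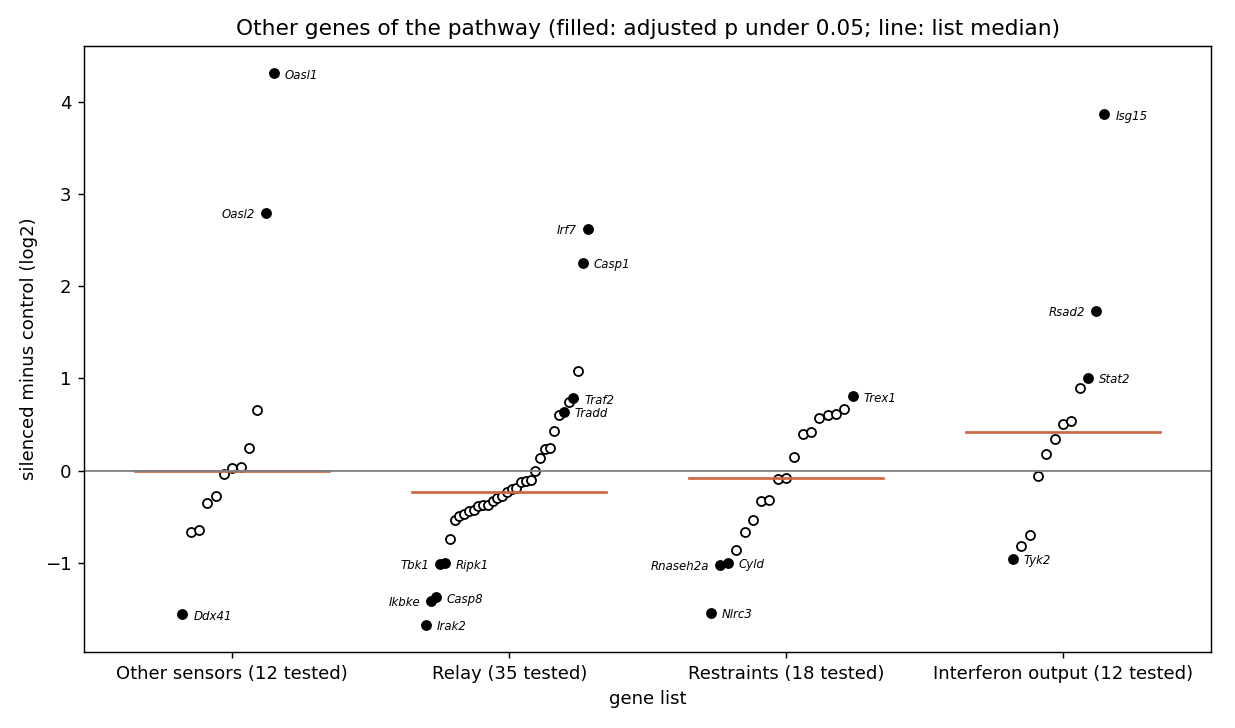
Silenced minus control change in log2 units (vertical axis) of the tested genes of 4 pathway lists (horizontal axis), ordered by size within a list, filled and named where the adjusted p was under 0.05, with the list median as a line. The points of Oasl1, Oasl2, Irf7 and Rsad2 come from probes not well above background on any control array, and those of Casp1 and Ikbke from probes so on 1 control array, so their heights are no measured size, while Isg15 at 3.87 and Irak2 at -1.67 were above background on all arrays.

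The genes whose level followed each of the 3 brightest members most closely were found by Pearson correlation over the 8 arrays, among 13902 genes with values on all of them. These arrays share a group difference, so such values are high for many pairs. For Tmem173 they were Zc3h3 (r = 0.996), Trim54 (0.996) and Gpt (0.994). For Mavs they were Socs3 (0.986), Pdcd6ip (0.983) and Mllt1 (0.982), and for Tlr9 they were Tox4 (0.993), Prmt3 (0.992) and Ubac2 (0.992).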

How the data were processed

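Total RNA of 8 cultures, 4 per group, was hybridised to Agilent mouse arrays on 1 slide. The deposited scanner files hold spot intensity, which per the file headers came from Feature Extraction 12.0.0.7 (10.7.3.1 in the submitters' processing notes), background-subtracted without scaling across arrays. A series table of scaled intensity, deposited by the authors too, served as an alternative. Detection flags, a score of 0 or 1 per spot, were taken from the deposited files. Spots not positive and significant were masked, log2 values of the deposited intensity were quantile normalized and spots of a probe averaged, as the study's methods state. Outlier spots were left out. Probes with 3 of 4 values per group (28649) were fitted on group with limma 3.58.1 (R 4.3.3), adjusted by Benjamini-Hochberg at 0.05. At-least folds used the lowest signal well above background on each dim array. The fit was tested on simulated data.

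Members and lists were chosen with earlier results of these data known. Named were every member, Pvt1, up to 4 called genes per list and direction, and 3 most alike genes for the 3 brightest members. Others were added after their values were seen: Mb21d1, Eif2ak2, Irf3, Ifit2, Adar, Ifnb1, Ifna2, Ifna4, the untested interferon output genes, genes named for the promoter word, and markers. A listed gene of interferon output is not reported here and enters no list count or median. Probe coordinates are mm9. Exons and UTRs under the probes were not analysed here. RefSeq identifiers matched all 10 members by accession. The number of arrays limits the precision. Alternatives were other normalizations, background corrections, filters, blocks, tests, probes and arrays.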

Additional observations from a re-analysis of the deposited data

Results flagged for a closer look

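Among 21 groups of 4 values examined for the members and Pvt1, 2 held a value far from the others, and chance gives about 1 in 20. Both were on silenced replicate 4, the dimmest array. Its Mavs value was 9.52 against 11.73 to 11.90 in the other silenced cultures. Its Dhx58 value was 4.84 against 6.01 to 6.21. The part of array brightness in these values was not tested.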

How the results depend on the processing

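The direction of each of the 8 tested genes held under all 22 alternatives. Some of these could not turn it, since they refit the same values. Among them, the stricter filter, complete probes, the replicate block and the t-test left each change as it was. The choice of probe did so for genes with 1 tested probe. Beside 3 members called higher and 1 lower, a shift to the 75th percentile gave 2 lower, cyclic loess, the authors' series table and no masking each gave 0 lower, the slide row as a block gave 1 higher and 0 lower, and the methods' t-test, adjusted here by Benjamini-Hochberg, gave 1 higher and 0 lower. Leaving out each array in turn gave 1 to 4 higher and 0 to 1 lower. With control replicate 3 and silenced replicate 4 both left out, an alternative chosen after seeing the data, 5 were higher and 2 lower. Deviations from the group means correlated at -0.04, 0.19, 0.22 and 0.06 between cultures of the same number, 1 to 4. The highest correlations with another number were 0.11, 0.11, 0.04 and 0.11. Numbers 2 and 3 thus matched best with their own partner and 1 and 4 did not, so these values do not settle whether the numbers pair the cultures. With the replicate block the members gave 3 higher and 0 lower, and the Pvt1 change kept its call (-2.86, adjusted p 0.00188). Over all probes, 1373 higher and 5269 lower (79.3% lower) became 2165 and 6884 with the percentile shift, 5416 and 5258 (49.3% lower) with cyclic loess, 4509 and 4461 (49.7%) with the series table, 4990 and 4787 (49.0%) without masking, 534 and 2573 with the slide row, 566 and 2854 with the t-test, 684 to 3572 and 2995 to 5737 with 1 array left out (59.7% lower without silenced replicate 4), and 5341 and 6977 (56.6%) without both arrays. The methods' t-test unadjusted gave 4 members and 9021 probes under 0.05.

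The planned difference between the upstream and the 3′ probe within a gene, for Ddx58 and Aim2, rests on upstream probes at or near background and bears on no result. Its silenced minus control change was -0.70 for Ddx58 and 0.21 for Aim2 (exact permutation p adjusted over 2 genes 0.343 and 0.657). For Aim2 it turned to -0.11 without control replicate 3 and to -0.14 without both arrays, and ranged from -0.11 to 0.44 with 1 array left out, and for Ddx58 from -0.97 to -0.46. Ddx58 had no such value without masking, in the series table or in complete probes. Pvt1 had no value in the series table fit. Genes dim in both groups, Tlr3 and Zbp1 among them, are limited by background.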
